A study of Mus musculus with 4 samples.

Results

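The cells described here are T cells found inside libraries of bone marrow progenitors purified by cell sorting as LSK cells (lineage-negative, Sca1-positive, cKit-positive). They were selected on their own transcripts: a cell was taken where the 6 genes of the T cell receptor (TCR) complex, Cd3d, Cd3e, Cd3g, Trac, Trbc1 and Trbc2, together held 3 or more unique molecular identifiers (UMIs, each standing for 1 captured RNA molecule). The rule picked 239 of 15421 cells in 4 libraries. Of these, 231 (96.7%) came from the untreated libraries, 106 from the wild-type (WT) library and 125 from the chronic myeloid leukaemia (CML) library. The levels of those 6 genes are therefore a description of the choice and not a result.

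T cells recognise antigen through a receptor made of alpha and beta chains, or of gamma and delta chains, which signals through the CD3 subunits and the kinase Lck. CD4 and CD8 mark the helper and the cytotoxic lineages, Foxp3 directs regulatory T cells, and bone marrow is known as a home of memory and regulatory T cells beside its blood-forming stem cells. LSK sorting enriches haematopoietic stem and multipotent progenitor cells, and antibodies to T cell antigens are commonly part of the lineage cocktail, although the antibodies are not given in the sources used here.

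By its design text the study set CML cells that respond to drug against those that resist it, beside mouse stem and progenitor cells, using inDrop, a droplet method for single-cell RNA sequencing. All 4 samples were bone marrow of C57BL/6 mice, with 1 library for each pairing of genotype (WT or CML) and treatment (none or imatinib). Mice on imatinib, an inhibitor of the BCR-ABL kinase, received 400 mg/kg every other day by gavage, which lasted 30 days by one label and 4 weeks by another. The genetic model behind the CML mice, the number of animals pooled, their age and their sex are not given in the sources used here. With 1 library per group there is no replicate check and no test between groups: all intervals below are exact 95% intervals (Poisson, Clopper-Pearson or conditional binomial) that cover counting error only, and reads are deduplicated by the UMI only as far as the authors' processing did so.

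The beta chain constant genes carry much of the selection, and they are near-identical copies. Trbc1 lies at chr6:41538218-41539881 and Trbc2 at chr6:41546730-41548352 (GRCm38, plus strand, GENCODE vM21). Their first coding exons, 375 bases each, differ at 1 base, an identity of 99.73%. The stretches around it, 120 bases from chr6:41538417-41538536 and chr6:41546929-41547048, are shown with the differing base in capitals (C61A, counted from the first printed base, with the Trbc1 base first).
Trbc1: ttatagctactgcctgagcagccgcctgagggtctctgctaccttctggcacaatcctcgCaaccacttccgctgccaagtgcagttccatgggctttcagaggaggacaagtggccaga
Trbc2: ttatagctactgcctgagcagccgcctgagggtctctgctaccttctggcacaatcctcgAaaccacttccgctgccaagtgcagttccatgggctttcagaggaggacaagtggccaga
The 3′ untranslated regions, 219 and 174 bases long, shared only 53.3% of aligned positions. A beta chain uses 1 of the constant genes, yet among T cells with 3 or more UMIs over both genes, 33 of 72 in the WT library (45.8%, 34.0 to 58.0%) and 30 of 85 in the CML library (35.3%, 25.2 to 46.4%) had UMIs of both. The rules for counting reads that fit both genes are not given in the sources used here, so the split between Trbc1 and Trbc2 is uncertain, and an effect on their sum was not tested.

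In the WT untreated library 106 of 3033 cells were T cells (3.49%, 2.87 to 4.21%), and in the CML untreated library 125 of 3032 (4.12%, 3.44 to 4.89%), intervals that overlap. The WT imatinib library held 7 of 4189 (0.167%, 0.0672 to 0.344%) and the CML imatinib library 1 of 5167 (0.0194%, 0.00049 to 0.108%). Both untreated shares lay above both imatinib shares. The untreated files hold no cell under 1000 UMIs while the imatinib files do, so the shares were also taken after thinning cells to 1000 UMIs. That left 77 of 3033 (2.54%) and 91 of 3032 (3.0%) in the untreated libraries, against 0 of 2869 and 0 of 3080 in the imatinib libraries, which allows shares of up to 0.105% and 0.0974%. Library and treatment cannot be told apart here.

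**Figure D1:**
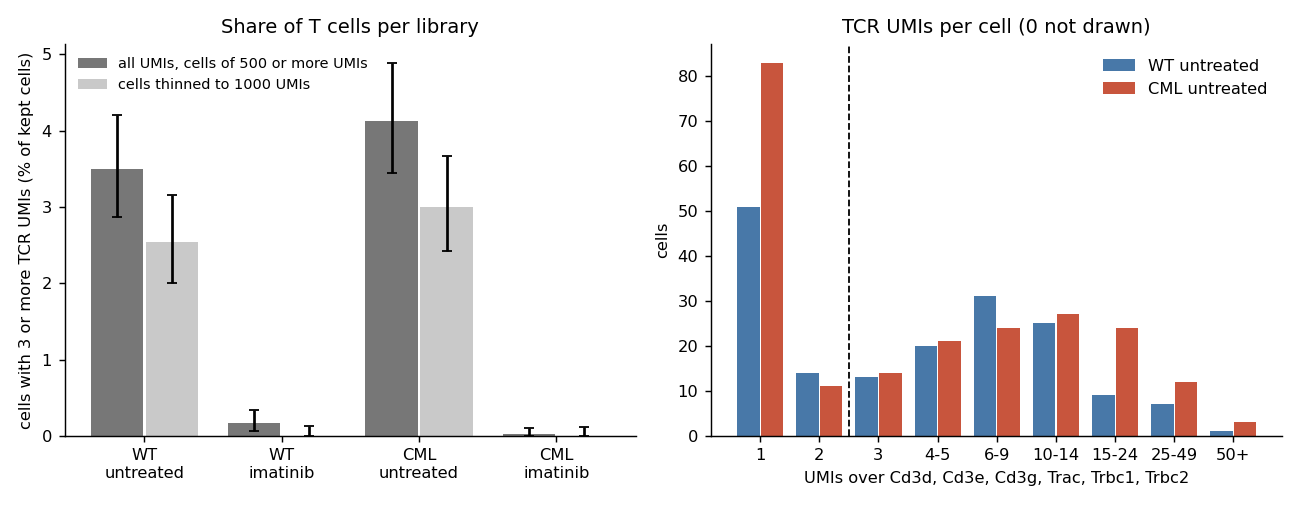
Left, percent of kept cells with 3 or more TCR UMIs in each library, with all UMIs (dark bars) and after thinning to 1000 UMIs (light bars); error bars are exact 95% binomial intervals for counting error. Right, number of cells in the untreated libraries by TCR UMIs per cell, with the dashed line at the selection limit; 42 WT and 66 CML cells had 10 or more.

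The 8 selected cells of the imatinib libraries held few of the other T cell genes. The 7 WT imatinib cells had no UMI of Cd4, Icos, Maf, Izumo1r, Il7r or Bcl11b among 11664 UMIs, though 3 of them had Lck, 5 had Thy1 and 3 had Ccl5, and 3 of them held 102 UMIs of Mpo and 2 held 135 of Elane, granule proteins of myeloid progenitors, while 4 held 67 of S100a8. The CML imatinib cell, at 14725 UMIs, was picked on 1 UMI of Cd3d and 2 of Cd3g. These 8 cells enter none of the comparisons below.

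In the untreated libraries the label of T cell held against genes outside the rule. Levels are given as counts per 1e+06 UMIs summed over the cells of a library (CPM), beside the cells of the same library with no TCR UMI, 2862 in WT and 2813 in CML. Lck stood at 630 CPM (539 to 732) in WT T cells and 690 (610 to 777) in CML T cells, against 18.1 and 16.1 in the cells without TCR UMIs. Thy1, a surface glycoprotein of T cells, stood at 748 and 792 CPM against 20.4 and 24.6, and Bcl11b, a transcription factor of T cell commitment, at 396 and 703 against 2.93 and 3.06. Of the 24 genes listed for TCR signalling and costimulation, 17 in WT and 20 in CML were at least 5-fold above the other cells. Since the cells were chosen from the same transcriptomes, these gaps describe the cells and are not a test.

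The limit of 3 TCR UMIs cut through a graded range. WT cells with exactly 3 (13 cells) had Lck at 255 CPM and those with exactly 2 (14 cells) at 452, whereas those with 1 (51 cells) had 55.8. In the CML library the values were 407 CPM at 3 UMIs (14 cells), 81.7 at 2 (11 cells) and 25.9 at 1 (83 cells). Thy1 at 3, 2 and 1 UMIs was at 301, 56.5 and 107 CPM in WT and 778, 136 and 36.0 in CML. Cells at the limit also held progenitor genes. With exactly 3 UMIs, Cd34, Kit and Mpo stood at 440, 208 and 278 CPM in WT and 148, 37.0 and 1148 in CML. The cells without TCR UMIs had 436, 137 and 846 in WT and 323, 152 and 656 in CML. The 31 Mpo UMIs behind the 1148 CPM were in 2 cells. T cells were shallow cells: their median was 1895.5 UMIs in WT and 2362 in CML, against 3708 and 5287 in the cells without TCR UMIs.

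Markers of progenitors were mostly lacking in the T cells. Over the 13 progenitor genes the median T cell had 0 UMIs in both libraries, against 10 and 15 in the other cells, and none of the 13 was higher in T cells than in the other cells. A minority carried them: 21 of 106 WT cells (19.8%) and 18 of 125 CML cells (14.4%) had 3 or more such UMIs, against 87.1% and 90.4% of the other cells. The summed level of the list was 949 CPM in WT and 721 in CML T cells, against 5817 and 5032. Of the genes behind the sort, Kit was seen in 14.2% of WT and 9.60% of CML T cells, below the 35.4% and 41.9% of the other, deeper cells. Ly6a, which encodes Sca1, was higher in T cells, at 630 and 1090 CPM, than in the other cells, at 180 and 76.8 CPM. Sca1 is also known from activated T cells.

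Markers of most other blood lineages lay below their level in the other cells, with exceptions among natural killer, mast cell, plasma cell and, in CML, B cell genes. Of the 6 neutrophil genes all were at 0 UMIs in WT and 5 in CML T cells. Monocyte genes summed to 92.6 and 43.6 CPM against 366 and 228 in the other cells, erythroid genes to 74.1 and 71.8 against 255 and 292, and megakaryocyte genes to 92.6 and 25.6 against 184 and 157. Dendritic cell genes summed to 81.5 and 82.1 CPM against 198 and 174. B cell genes summed to 11.1 CPM in WT and 61.5 in CML against 42.1 and 21.9, and the 13 Cd79a UMIs of the CML T cells sat in 1 cell. Natural killer genes summed to 222 and 180 CPM against 206 and 119, with Ncr1 in 3 WT cells and 0 CML cells. Mast cell and basophil genes summed to 315 CPM in WT and 487 in CML against 138 and 747, with 63 of the 103 Cpa3 UMIs of CML in 1 cell. Plasma cell genes summed to 886 CPM in WT T cells but 18258 in CML T cells, against 24091 and 6977 in the other cells, and 2 CML cells with 200 or more plasma cell UMIs each, the highest with 6410, carried nearly all of it. Whether these cells were doublets was not tested. Without cells bearing 3 or more UMIs over the progenitor and other lineage genes or 20 or more plasma cell UMIs, 76 WT (71.7%) and 100 CML T cells (80.0%) were left. Natural killer genes were not part of that filter.

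Outside the rule genes, those among the 20 that stood highest above the other cells in both libraries included Ccl5, Gimap4, Cxcr3, Bcl11b, Slfn1, Cd2, Tcrg-C2, Cd4, Tnfrsf4 and Il2rb, followed by Gimap3, Sh2d2a, Cxcr6, Rgs16, Cd247, Tcf7, S100a4, Maf and Skap1. Gimap4, a GTPase of lymphocytes, was seen in 53.8% of WT and 69.6% of CML T cells. S100a4, a calcium-binding protein high in memory T cells, was seen in 60.4% and 53.6%. Cxcr3 and Cxcr6, chemokine receptors of effector and tissue T cells, were at 130 and 187 CPM and at 185 and 156 CPM in WT and CML. The range among the 20 was narrow at its lower end: Skap1, an adaptor of TCR signalling, was at 130 and 126 CPM against 1.82 and 2.01 in the other cells.

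The T cells held many Cd4 transcripts and almost no Cd8 transcripts. Cd4 (chr6:124864692-124888221) was seen in 37 of 106 WT cells (34.9%, 25.9 to 44.8%) and 66 of 125 CML cells (52.8%, 43.7 to 61.8%). Cells without TCR UMIs showed it in 0.629% and 1.42%, at a greater depth. Cd8a was at 0 UMIs in both, which allows a share of up to 2.83% of WT and 2.40% of CML T cells with a UMI, and Cd8b1 had 2 and 3 UMIs. No T cell had a Cd8 UMI without a Cd4 UMI. In 69 WT cells (65.1%) and 59 CML cells (47.2%) neither was found, and at these depths a missing Cd4 UMI does not show a missing transcript.

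Constant genes of the gamma and delta chains marked a smaller group. A UMI of Trdc, Tcrg-C1, Tcrg-C2 or Tcrg-C4 was found in 22 WT cells (20.8%, 13.5 to 29.7%) and 15 CML cells (12%, 6.87 to 19.0%), and at 1000 UMIs per cell in 15.1% and 9.60%. Only 1 and 3 of these cells also had Cd4. The delta constant gene Trdc itself was seen in 6 cells of each library, and all 22 and 15 cells also held UMIs of Trac, Trbc1 or Trbc2. The selection nearly fixes this, since 0 WT and 1 CML T cells passed on Cd3 UMIs alone. Cells with gamma and delta chains but few Trac or Trbc UMIs could be missed, so these shares do not measure that lineage. Izumo1r, Foxp3 and Ctla4 were at 0 UMIs in this group in both libraries, whereas Tcf7, a transcription factor of T cell development and memory, was seen in 54.5% and 66.7% of it, against 26.4% and 27.2% of all T cells. Tcf7 was in 11 of the 15 WT cells with Tcrg-C4 and in 17 of the 91 without, and the former were deeper (medians of 3316 and 1855 UMIs). At 1000 UMIs per cell it was in 3 of 10 and 15 of 96.

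The 6 genes that describe T cell subsets differed in how many cells held them. Ccl5 (chr11:83525778-83530518), a chemokine of memory and cytotoxic T cells, was the most abundant, at 771 CPM (670 to 883) in WT and 1026 (928 to 1131) in CML, in 42.5% and 42.4% of T cells. Maf (chr8:115682942-115707794), a transcription factor of helper and regulatory subsets, was at 222 CPM (170 to 286) and 656 (579 to 742), in 35.8% and 47.2%. Icos (chr1:60977927-61000320), an inducible costimulator, was at 156 CPM (112 to 210) and 449 (385 to 520), in 22.6% and 34.4%. Each of the 3 stood far above the cells without TCR UMIs, which held 3.49 to 7.58 CPM in 1.01% to 2.52% of cells.

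Il7r (chr15:9505788-9530176), the receptor chain for the survival cytokine IL-7, was at 119 CPM (81.1 to 167) in WT and 321 (267 to 382) in CML T cells, in 18.9% and 29.6%. Izumo1r (chr9:14885814-14903949), the folate receptor 4 of regulatory and anergic CD4 T cells, was at 81.5 CPM (51.1 to 123) and 364 (307 to 429), in 14.2% and 30.4%, and at 0.0792 and 0.803 CPM in the other cells, in 0.0349% and 0.320% of them. With every cell thinned to 1000 UMIs the WT and CML shares were 28.3% and 47.2% for Cd4, 17% and 21.6% for Icos, 27.4% and 36.8% for Maf, 8.49% and 23.2% for Izumo1r, 34.0% and 31.2% for Ccl5, and 12.3% and 20.8% for Il7r. At matched depth only Cd4 and Izumo1r had WT and CML intervals that did not overlap (20 to 37.9% against 38.2 to 56.3%, and 3.96 to 15.5% against 16.1 to 31.6%). Both gaps are narrow, that of Cd4 most of all, and the thinning was 1 random draw per library. The most UMIs in 1 T cell were 3 in WT and 20 in CML for Izumo1r, and 3 and 13 for Icos. These maxima are not matched for depth: the deepest T cell held 7788 UMIs in WT and 17794 in CML.

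**Figure D2:**
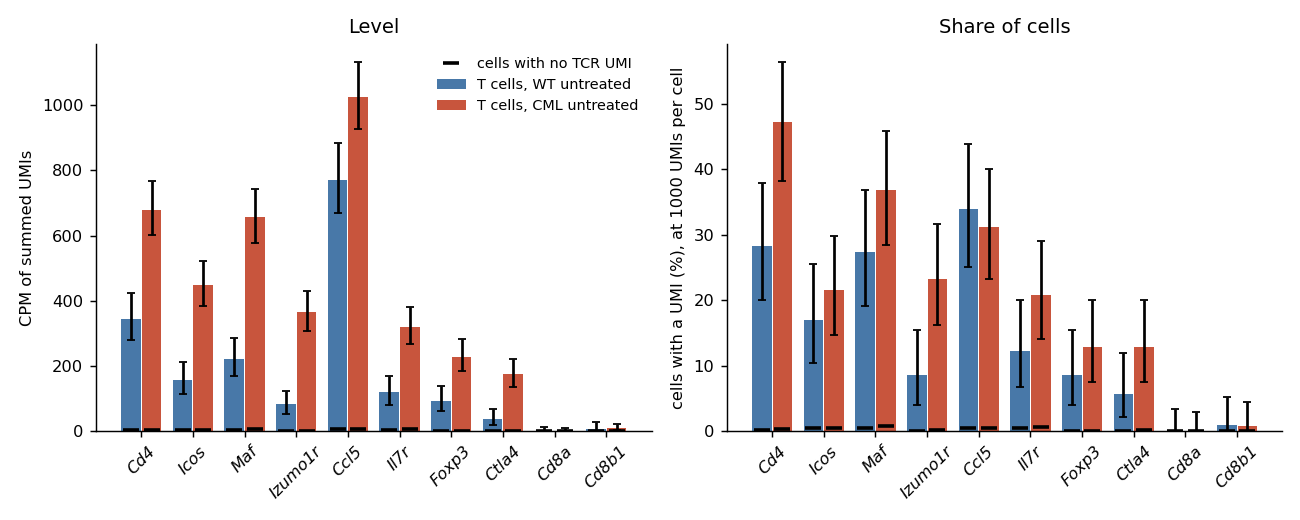
Level (CPM of UMIs summed over the T cells of a library, left) and share of T cells with a UMI after thinning to 1000 UMIs (right) of 10 genes in WT (blue) and CML (red) untreated T cells; error bars are exact 95% Poisson and binomial intervals for counting error, and black ticks are the cells with no TCR UMI. Cd8a and Cd8b1 lie at or near 0 in both libraries, and Izumo1r shows a gap between the libraries in both panels.

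Genes of several polarised states were at or near 0. Il17a, the cytokine of type 17 helper cells, had 0 UMIs in both libraries. Bcl6, Cxcr5 and Il21, which define follicular helper cells, had 0 UMIs in WT and 4, 5 and 1 in CML. Ccr7, a homing receptor of naive and central memory cells, had 3 and 1. By contrast Ifng, the type 1 cytokine, was at 119 and 89.8 CPM against 0.0792 and 0.150 in the other cells, and Gata3, a transcription factor of T cells and of the type 2 state, at 385 in both libraries against 21.6 and 19.8.

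Foxp3 was seen in 14 WT cells (13.2%, 7.41 to 21.2%) and 26 CML cells (20.8%, 14.1 to 29.0%), and at 1000 UMIs per cell in 8.49% and 12.8%. The cells without TCR UMIs showed it in 0.210% and 0.462%. Izumo1r was found in 7 of the 14 WT cells with Foxp3 and in 8 of the 92 without, and in 14 of 26 and 24 of 99 in CML. Ctla4, an inhibitory receptor, was found in 3 of 14 and 4 of 92 in WT, and in 14 of 26 and 16 of 99 in CML. Tcf7 was found in none of the Foxp3 cells of either library, which allows up to 21.4% and 11.5%, but in 28 of 92 and 34 of 99 of the others. Cxcr6 was in 0 of 14 and 2 of 26 Foxp3 cells, and in 21 of 92 and 24 of 99 of the others. The cells with Foxp3 had a median of 1519 UMIs in WT and 2798 in CML, and those without 1968.5 and 2236.

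Cells with Ccl5 differed from those without in several genes, Izumo1r among them. Izumo1r was in 9 of the 45 WT cells with Ccl5 and 6 of the 61 without, and at 1000 UMIs per cell in 19.4% and 2.86%. In CML it was in 45.3% of the cells with Ccl5 and 30.4% of all T cells. Il2rb, the beta chain of the IL-2 and IL-15 receptors, was in 17 of the 45 WT cells with Ccl5 and 9 of the 61 without, and in 26 of 53 and 10 of 72 in CML. Id2, an inhibitor of E proteins in effector lymphocytes, was in 66.7% against 42.6% in WT and 69.8% against 43.1% in CML. Cxcr3 was in 20% against 14.8% in WT and 43.4% against 11.1% in CML. At 1000 UMIs per cell the CML shares were 25.6% against 14% for Cxcr3, 28.2% against 12.8% for Il2rb and 51.3% against 34.9% for Id2, and the WT shares 19.4% against 10%, 30.6% against 11.4% and 58.3% against 28.6%. Foxp3 was shared evenly: Ccl5 was in 6 of the 14 Foxp3 cells of WT and 12 of the 26 of CML, close to its share in all T cells. The WT cells with Ccl5 were shallower than those without (medians of 1377 and 2548 UMIs). These co-detections are descriptions over cells of 1 library each, with no test.

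**Figure D3:**
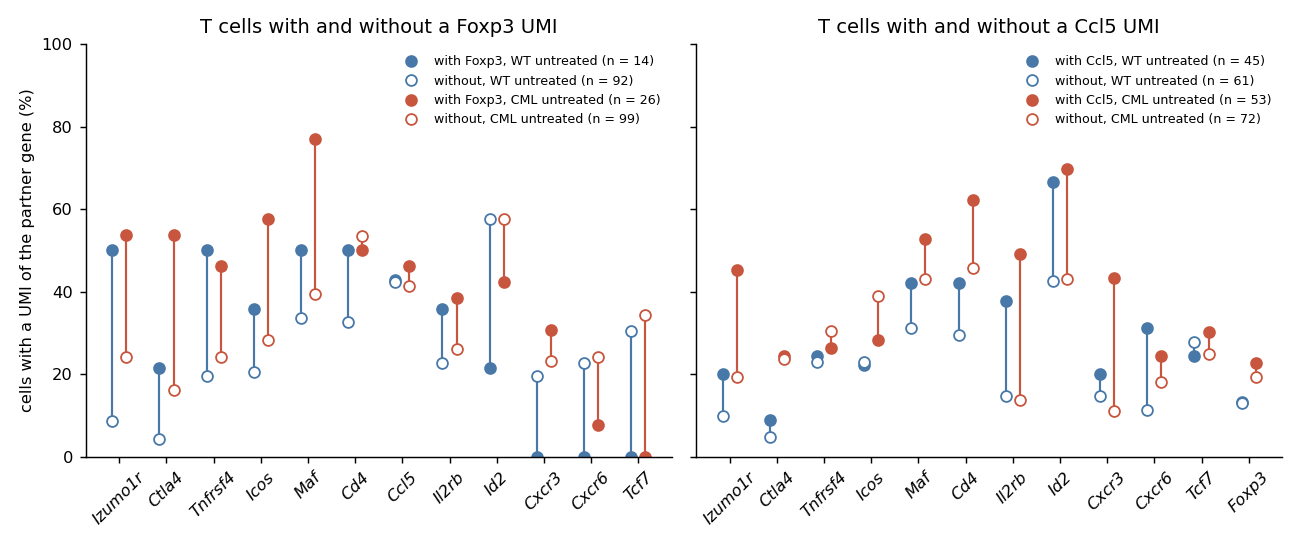
Percent of T cells with a UMI of each partner gene, among cells with (filled) and without (open) a UMI of Foxp3 (left) or Ccl5 (right), in WT (blue) and CML (red) untreated libraries, with all UMIs. Izumo1r and Ctla4 are more frequent with Foxp3 and Tcf7 is at 0 there. Izumo1r, Il2rb and Id2 are more frequent with Ccl5 in both libraries.

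CML untreated T cells were then set against WT untreated T cells gene by gene, over 389961 and 269879 UMIs. A gene counted as higher or lower where the libraries differed at least 2-fold and the higher one had 100 CPM and 50 UMIs. Of 1326 genes that could meet this, 117 (8.82%) were higher and 40 (3.02%) lower in CML. Because 50 UMIs equal 185 CPM in WT and 128 CPM in CML, the limit is easier to meet on the CML side. In the cells without TCR UMIs 16 of 1929 genes were higher and 10 lower, and 9 genes were higher in both kinds of cell. Those sums cover 2862 WT and 2813 CML cells, against 106 and 125 T cells. Counting error and single rich cells weigh more in the smaller sums, so the counts of the kinds of cell are not a like comparison. The median log2 ratio over 5302 genes with 20 or more UMIs was -0.07. Without the T cells that carried markers of other lineages the counts were 78 and 23 of 742, of which 51 and 7 were among the 117 and the 40. After thinning every cell to 1000 UMIs they were 29 and 4 of 380.

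The subset genes were higher in CML for all but Ccl5 and, by a narrow margin, Cd4. The log2 ratio of CML over WT was 2.16 (1.51 to 2.88) for Izumo1r, 1.56 (1.15 to 1.99) for Maf, 1.53 (1.03 to 2.05) for Icos and 1.43 (0.86 to 2.04) for Il7r. It was 0.98 (0.63 to 1.34) for Cd4 and 0.41 (0.17 to 0.66) for Ccl5. Ccl5 came to -0.001 when each cell was given equal weight, and Icos and Maf came to 0.90 and 0.88, under 2-fold, after thinning. Izumo1r lay between 1.79 and 2.25 in all 10 alternatives.

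The subset genes were also compared within cells with and without a Cd4 UMI, a split that depth blurs. Among T cells with a Cd4 UMI, 37 in WT and 66 in CML, the log2 ratio was 2.03 (1.12 to 3.08) for Izumo1r, 1.92 (1.0 to 2.97) for Il7r, 1.35 (0.79 to 1.97) for Maf and 1.11 (0.45 to 1.83) for Icos. Among the 69 WT and 59 CML cells with none it was 1.96 (1.0 to 3.06), 0.70 (-0.10 to 1.54), 1.5 (0.90 to 2.14) and 1.73 (0.98 to 2.54) for the same genes. In cells with Cd4 and no Foxp3, 30 and 53, Maf was at 0.53 (-0.14 to 1.24) and Icos at 0.78 (-0.01 to 1.63), whereas in the 14 and 26 cells with Foxp3 Maf was at 2.50 (1.53 to 3.66). Izumo1r was at 2.31 (1.1 to 3.82) in the former and 1.01 (0.07 to 2.09) in the latter. In all cells without Foxp3, 92 and 99, Maf was at 0.91 (0.43 to 1.41) and Icos at 1.25 (0.67 to 1.87). Izumo1r was at 2.57 (1.66 to 3.63) there. Whether these ratios differ from each other was not tested.

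Genes of regulatory T cells leaned the same way. All 10 of the 11 listed genes with 20 or more UMIs were above 0, with a median log2 ratio of 0.93 against -0.12 in the cells without TCR UMIs. Of the 7 that could be called 3 were higher, beside 8.82% of all genes. Foxp3 was at 92.6 CPM in WT and 228 in CML (log2 1.30, 0.65 to 2.0), with 25 of 89 CML UMIs in 1 cell, Ctla4 at 37.1 and 174 (2.23, 1.27 to 3.36), and Tnfrsf9, a costimulatory receptor, at 40.8 and 174 (2.10, 1.17 to 3.17). Without the richest CML cell the Foxp3 ratio was 0.84, under 2-fold, and without the richest cell of each library it was 1.23. Ikzf2, a partner of Foxp3, differed little, at 811 and 892 CPM (0.14, -0.11 to 0.39). Of the 12 follicular helper genes, 8 had 20 or more UMIs and all were above 0 (median 1.55), and the 3 that could be called, Icos, Maf and Izumo1r, are the subset genes above. After thinning to 1000 UMIs per cell the follicular helper median was 0.88 over 7 genes and the regulatory median 0.50 over 9. Of the genes that could still be called, 1 of 3 follicular helper and 0 of 3 regulatory genes were higher, beside 29 of 380 over all genes. Icos, Maf and Izumo1r are known from regulatory cells as well, and the defining Bcl6, Cxcr5 and Il21 were near 0.

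Receptor and costimulation genes were partly higher. Of 24 listed genes 14 could be called and 3 were higher, beside 8.82% of all genes. They were Cd2, an adhesion receptor (141 and 338 CPM, log2 1.27), and Cd5 and Cd6, modulators of TCR signalling (51.9 and 144 CPM, 1.47, and 37.1 and 169 CPM, 2.19). After thinning 0 of 6 were higher, beside 29 of 380 over all genes. Without T cells carrying markers of other lineages 2 of 14 were, beside 78 of 742. Lck and Thy1 differed by 0.13 (-0.15 to 0.42) and 0.08 (-0.18 to 0.35). Of the 11 lineage transcription factors 6 could be called and none was, beside 8.82% of all genes called higher and 3.02% lower. Bcl11b was at 0.83 (0.50 to 1.16) and Gata3 and Tcf7 at -0.003 and 0.002. Of 12 chemokine and cytokine receptor genes 4 could be called and 1 was higher, beside 8.82% of all genes. It was Ccr2, at 193 and 492 CPM (1.35, 0.90 to 1.82). No gene of that list was called with equal weight per cell or after thinning. The same held without T cells holding progenitor UMIs, and without those carrying markers of other lineages. Of 16 memory and effector genes 15 could be called and 1 was higher, beside 8.82% of all genes. It was Cd69, an activation and residency marker, at 270 and 551 CPM (1.03, 0.64 to 1.43). Of its 215 CML UMIs 53 were in 1 cell, and its ratio was 0.86 without the richest cell of each library. Ly6a was at 0.79 (0.53 to 1.06) in T cells and at -1.23 in the other cells.

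Cytotoxic and innate-like genes were uneven. Gzmb, the granule protease granzyme B, was at 126 CPM in WT and 1967 in CML T cells (log2 3.96), but 450 of its 767 CML UMIs were in 1 cell, and without the cell richest in it in each library the ratio was 3.14, and the share of T cells with Gzmb was 13.2% and 20%. It was also higher in the CML cells without TCR UMIs (log2 4.18). Ccl4, a chemokine, was at 55.6 and 138 CPM (1.32, 0.47 to 2.25), with 30 of 54 CML UMIs in 1 cell and a ratio of 0.58 without the richest cells. The 4 gamma and delta constant genes with 20 or more UMIs were all below 0, and Tcrg-C4 was called lower, at 211 CPM in 15 WT cells and 82.1 in 6 CML cells (log2 -1.36, -2.04 to -0.71). Dntt, the terminal transferase of lymphoid precursors, was lower at 245 and 71.8 CPM (-1.77, -2.46 to -1.11) and was seen in 17 WT and 3 CML cells. Without the T cells that carried markers of other lineages 5 Dntt UMIs were left in WT and 0 in CML, while Tcrg-C4 had 36 and 18. Rag1 and Ptcra, of developing T cells, had at most 2 UMIs in either library.

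**Figure D4:**
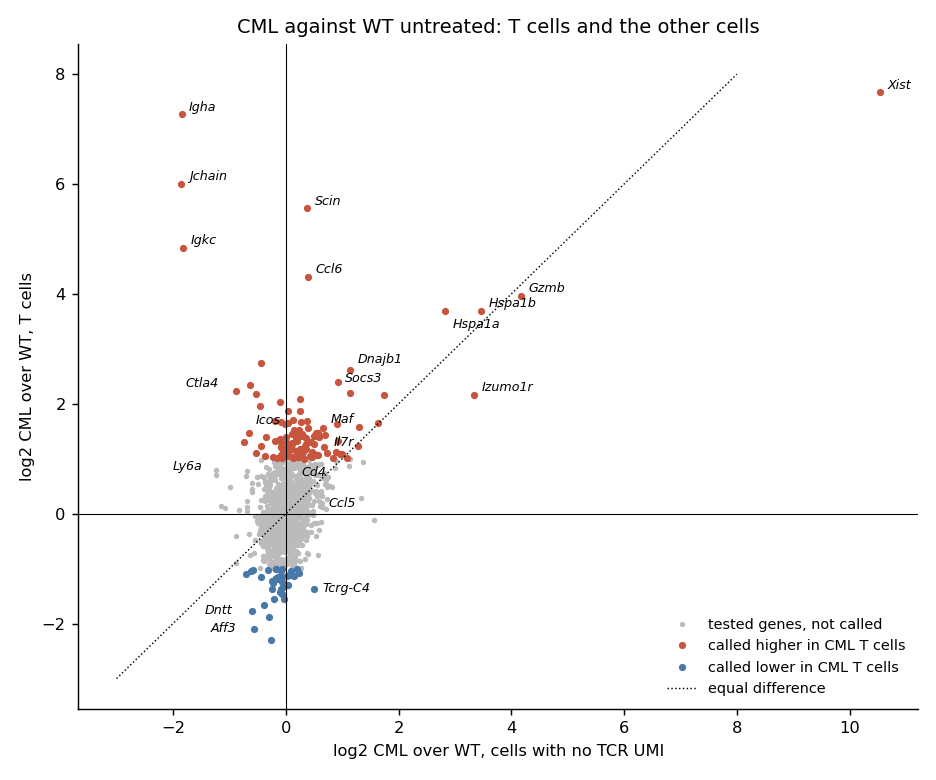
log2 ratio of CML over WT in T cells (vertical) against the same ratio in cells with no TCR UMI (horizontal) for 1320 of the 1326 genes compared; 6 genes at 0 UMIs in the other cells of a library are not drawn, and genes at 0 in WT T cells are drawn at 3 counts. Red and blue points are the genes called higher and lower in CML T cells. Xist, Hspa1b and Hspa1a lie high on both axes, while Igha, Jchain and Igkc are high in T cells and low in the other cells.

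Some heat shock and immediate early genes were higher in CML T cells, and the medians of both lists were near those in the other cells of that library. Hspa1b (chr17:34956436-34959238), a stress-induced HSP70 chaperone, was at 467 CPM in WT and 6034 in CML T cells (log2 3.69, 3.43 to 3.96) and had a ratio of 3.47 in the cells without TCR UMIs. It was seen in 20.8% of WT and 62.4% of CML T cells. Hspa1a was at 111 and 1428 CPM (3.68, and 2.83 in the other cells) and Dnajb1, an HSP40 co-chaperone, at 119 and 728 (2.62, and 1.15). Of 10 heat shock genes, which could all be called, 5 were higher (median 0.90, and 0.83 in the other cells). Of 17 immediate early genes 15 could be called and 7 were higher (median 1.0, and 0.94), beside 8.82% of all genes. Among them were Jun at 860 and 1862 CPM and Tnfaip3 at 471 and 1013. The immediate early count was 2 of 13 without T cells carrying markers of other lineages, beside 78 of 742 over all genes. With equal weight per cell it was 3 of 15, beside 99 of 1311. It was 4 of 13 after thinning, beside 29 of 380, and 9 of 15 with TMM scaling, beside 137 of 1353. Socs3, a feedback inhibitor of cytokine signalling, was at 51.9 and 274 CPM (2.40, 1.59 to 3.32, and 0.93 in the other cells). With 1 library per group, library and genotype cannot be told apart for any gene, including those that differed in T cells only.

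Of 21 proliferation genes 5 were called lower in CML T cells. In the S phase list and in the G2 and M list 6 genes each could be called. Over all genes the share called lower was 3.02%. All 11 G2 and M phase genes were below 0 (median -0.72, against -0.05 in the other cells), with Birc5, a mitotic regulator, called lower at 245 and 94.9 CPM (-1.37, -1.99 to -0.76). Of 10 S phase genes 8 were below 0 (median -1.12, against -0.01), and the 4 called lower were Rrm1 and Rrm2, subunits of ribonucleotide reductase, and Mcm5 and Mcm7 of the replicative helicase. Rrm1 stood at 396 and 156 CPM (-1.34, -1.82 to -0.87). At 1000 UMIs per cell, 28.3% of WT T cells (20 to 37.9%) and 14.4% of CML T cells (8.76 to 21.8%) had 2 or more UMIs of the G2 and M list, intervals that overlap, while the other cells had 32.1% and 33.2%. For S phase the shares were 28.3% and 17.6% in T cells and 60.0% and 60.2% in the other cells. With all UMIs, 34.0% and 24.8% of T cells passed for G2 and M and 46.2% and 36.0% for S phase, against 56.4% and 64.4% and 82.3% and 88.4% of the other, deeper cells. Without the T cells that carried markers of other lineages, 76 in WT and 100 in CML, the medians were -0.82 for G2 and M and -1.08 for S phase, and the shares at 1000 UMIs were 23.7% and 11% for G2 and M and 21.1% and 14% for S phase. In cells with 2 or more TCR UMIs the S phase median was -0.47 and the G2 and M median -0.49. There 0 of 7 and 0 of 6 genes were called, beside 28 of 1558 genes called lower over all genes. No gene of these lists was called without the T cells that carried markers of other lineages or after thinning either, where at most 1 had enough UMIs to be called. Mki67 differed little, at 204 and 185 CPM (-0.14, -0.67 to 0.39).

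**Figure D5:**
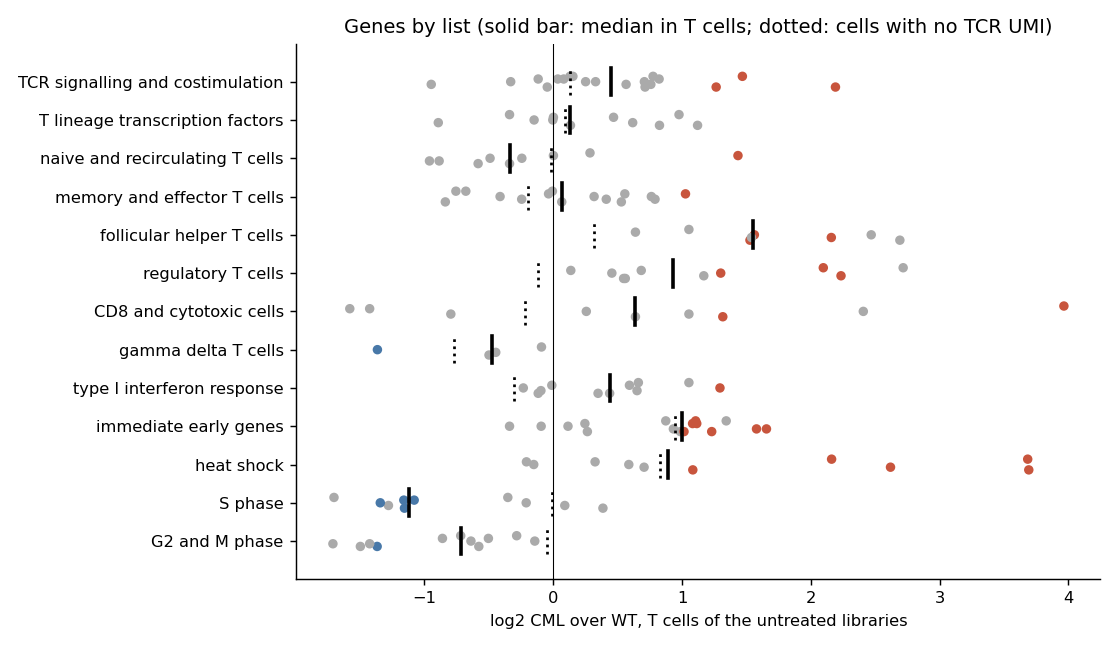
log2 ratio of CML over WT in T cells for the genes of 13 lists with 20 or more UMIs over both libraries (points; red called higher, blue called lower, grey not called). Solid bars are list medians in T cells and dotted bars those in cells with no TCR UMI. Heat shock and immediate early genes have both bars together. The T cell bar stands apart for several lists, among them follicular helper, regulatory, CD8 and cytotoxic, type I interferon, S phase and G2 and M phase genes.

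Among the genes with the highest ratios several were sex-linked or had most of their UMIs in 1 cell. Xist, which silences an X chromosome in females, had 0 UMIs in WT and 885 in CML T cells, at least 204-fold higher against a floor of 3 counts per library, and the same held in the other cells (1.58 and 2365 CPM). Of the 4 Y-linked genes listed, Eif2s3y had 24 UMIs in WT and 3 in CML T cells, so sex and genotype cannot be told apart. Igha, Jchain and Igkc, products of plasma cells, had 1463 of 1559, 1176 of 1203 and 3742 of 4143 CML UMIs in 1 cell. Ccl6, a chemokine of myeloid cells, had 81 of 86, Scin, an actin-severing protein, 60 of 68, and Pkn2, a kinase, 48 of 58. Over all 117 higher genes, 8 had more than 50% of their CML UMIs in 1 cell, and none of the 40 lower genes had so in WT.

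The lowest ratios were spread over more cells. Fam117a was at 252 CPM in WT and 51.3 in CML (-2.30), Aff3, a nuclear factor of lymphoid cells, at 196 and 46.2 (-2.09), Cdkn1a, the cell cycle inhibitor p21, at 189 and 51.3 (-1.88), and Myb, a transcription factor of progenitors and proliferating lymphocytes, at 241 and 87.2 (-1.47). Zfas1, Eif4h, Cdca8, Mcts1 and Ola1 lay between -1.66 and -1.37. Fam117a was higher in the other cells, at 408 and 342 CPM. Without the T cells that carried markers of other lineages it had 4 UMIs in WT and 9 in CML, a ratio of 0.35, while Aff3 had 14 and 1 and Cdkn1a 20 and 15 (log2 -1.23).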

How the data were processed

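There was 1 inDrop library per group, grouped by GEO's labels. The authors deposited normalized signal values, a matrix of 32265 genes by cells in each file. Bowtie 1.1.1, Partek 8.0 and GRCm38 (mm10) stand in the submitters' processing notes, and their roles are not given in the sources used here. Each cell's deposited signal was divided by its smallest value above 0 and rounded to recover UMIs: 100% of values were whole within 0.02. Header names outnumber value columns by 1, so cells were taken by position. WT untreated and WT imatinib share 1135 cell barcode names, other pairs 80 to 340, but same-named cells had a mean correlation of -0.002 over 1031 pairs, and no cell's values were identical between libraries.

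Cells with 500 or more UMIs and at most 20% mitochondrial UMIs were kept. No doublet caller was run. UMIs were summed over cells (CPM). A list's median was taken over genes with 20 or more UMIs over both libraries. TMM factors came from edgeR 4.0.16. Python 3.11.15, scipy 1.17.1 and R 4.3.3 were used. 30443 gene names (94.4%) matched GENCODE vM21. The calculations were tested on simulated data.

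The cells, gene lists and alternatives were chosen with earlier results of these data known. Named genes were the 12 highest and 12 lowest in CML over WT (1 CPM added, without predicted, ribosomal and mitochondrial genes), the 20 leading markers, up to 6 of the most abundant genes of each of 32 lists, the 6 subset genes and defining markers of other cell types. Other called genes of a list were named after their values were seen. Some genes that this rule names are not reported here.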

Additional observations from a re-analysis of the deposited data

Results flagged for a closer look

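Between the kinds of cell 3 genes had opposite directions, each past 2-fold: CML was above WT in T cells and below WT in the cells with no TCR UMI. They are Igha (log2 7.27 in T cells, -1.84 in the other cells), Igkc (4.84 and -1.82) and Jchain (6.00 and -1.85), immunoglobulin chains and the joining chain made by plasma cells. The difference between T cells and the other cells was not tested. Without the 2 CML T cells with 200 or more plasma cell UMIs the ratios in T cells were -0.96, -0.68 and -0.86.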

How the results depend on the processing

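No paired analysis was possible because each group is 1 library. The comparison has no replicates, and depth limits what single genes show: 3 counts equal 11.1 CPM in WT and 7.69 CPM in CML T cells. Untreated T cell numbers stayed within 1.5 times under all 5 alternatives. In WT imatinib they were 2 with 5 or more TCR UMIs, 2 with at least 1000 UMIs per cell and 0 after thinning. In CML imatinib they were 2 with 2 or more TCR UMIs, 0 with 5 or more and 0 after thinning.

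Thinning lowered the CML shares of Icos to 21.6%, Maf to 36.8%, Ccl5 to 31.2% and Il7r to 20.8%. The genes higher and lower in CML numbered 350 and 270 at a floor of 20 UMIs and 50 CPM, 42 and 7 at 100 UMIs, 29 and 4 after thinning (each with other numbers of genes able to pass), and 78 and 23 without T cells carrying markers of other cell types. TMM scaling gave 137 and 30 and moved the median of all genes by 0.09. Icos came to 0.90 and Maf to 0.88 after thinning. Maf came to 1.11 and Ccl5 to -0.001 with equal weight per cell. Ccl5 was 0.15 without T cells carrying markers of other cell types.

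Ratios turned sign for Igha (-0.96), Jchain (-0.86) and Igkc (-0.68) without the 2 plasma-rich cells. Without T cells carrying markers of other cell types they turned for Jchain (-0.82, 9 UMIs in each library), Igkc (-1.41), Pkn2 (-0.82, 5 UMIs in each) and Fam117a (0.35, 4 and 9 UMIs). Under that filter Ccl6, Scin and Igha had at most 3 UMIs in either library and give no ratio, as did Scin without T cells holding progenitor UMIs. The filters that remove plasma-rich cells or cells with markers of other cell types were chosen after seeing the data, as were the list medians under each setting. Apart from the removal of these cells by construction, the cause was not tested.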
